A study of Mus musculus with 4 samples.

Results

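Wnt ligands, their Frizzled and Lrp receptors, and the secreted R-spondins, Sfrp and Dkk proteins that raise or lower Wnt signalling were examined in mouse cortical neuron cultures depleted of the decapping enzyme DcpS. Members were chosen by gene symbol, as every row of the deposited table named as a Wnt, Fzd, Sfrp, Dkk or Rspo gene with its number, or as Lrp5 or Lrp6, which gave 43 of 32681 genes. They comprised 19 Wnt ligands, 10 Frizzled receptors, 2 Lrp co-receptors, 4 R-spondins, 4 Sfrp genes and 4 Dkk genes. Frzb, an Sfrp relative, and Dkkl1, a Dkk relative, carry other symbols and were counted with the wider pathway. The 4 libraries came from primary neuronal cells of the neocortex of wild-type CD-1 embryos at embryonic day 13, grown in Neurobasal medium with B27. Cells were transfected with Control shRNA in 2 libraries and with DcpS shRNA in 2, numbered by set, and the DcpS library titles carry a single hairpin name, shDcPS-2. Transfection may reach only part of a culture, and the labels give neither the share of cells reached nor a selection of transfected cells. Separate cultures, litters or days are not named in the labels. The p-values therefore reflect sample-to-sample variation alone, and that variation may be technical.

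Wnt ligands are lipid-modified secreted proteins that bind Frizzled receptors. With the co-receptors Lrp5 and Lrp6 they stabilise beta-catenin, which then acts with TCF and LEF factors on target genes, while Wnt5a and related ligands also signal through Frizzled, Ror and Ryk without beta-catenin. R-spondins keep Frizzled receptors at the cell surface, Sfrp proteins bind the ligands, and Dkk1, Dkk2 and Dkk4 block the Lrp co-receptors. In the embryonic cortex the medial edge, called the cortical hem, is a source of several Wnt ligands, and Wnt7a and Wnt7b are made by cells of the cortical wall.

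The recovered reads ran from 17754768 to 21793685 per library, at which a count of 0 allows up to 3 reads, or 0.138 to 0.169 CPM (reads as a share of the library, scaled to the usual round total), for counting error only. Dcps, the targeted gene, had normalised read counts (reads divided by a size factor of the library) of 499.8 and 507 in the controls against 114 and 119.6 with DcpS shRNA, 23.3% of the control mean (log2 fold change −2.10, SE 0.11; Benjamini-Hochberg adjusted p 1.52e-08 in limma). A gene on the other strand, 4930581F22Rik, overlaps 7.65% of its exons. Markers of cortical neurons were present, with 14 of 14 tested and a summed level of 5412 to 5671 CPM. Markers of other cells were also present, and the marker lists were chosen with earlier results of these data known. The counts of lower and higher markers stand beside 3.65% lower and 2.14% higher over all genes tested (limma, Benjamini-Hochberg adjusted p under 0.05). Of 18 meningeal fibroblast genes 11 were lower with DcpS shRNA, and the summed level of the list was 889 and 974 CPM in the controls against 569.9 and 540.1. The other 7 were not called, among them Crabp2, which had higher values in both DcpS shRNA libraries. Endothelial and mural markers summed to 43.8 and 46.4 against 28.8 and 26.9 CPM, with 3 of 10 tested genes lower (Acta2, Kdr and Pdgfrb). Pecam1 and Tagln of that list had higher values in both DcpS shRNA libraries without passing the test. Choroid plexus and ependyma markers summed to 292 and 302 against 226 and 242 CPM, with 3 of 8 lower (Aqp1, Cldn2 and Ttr). Ttr made up 85.8% of that sum, the other 7 genes summed to 38.96 and 40.1 against 36.9 and 35.5 CPM, and Foxj1 and Kcne2 had higher values in both DcpS shRNA libraries without passing the test. Of 8 tested astrocyte markers 4 were lower (Aqp4, Gfap, Gja1 and Sparcl1) and 1 higher (Aldoc), with summed levels of 517 and 525 against 499 and 498 CPM. Aldoc made up 40.6% of that sum, and the other 9 genes summed to 324 and 334 against 277 and 276 CPM. No listed marker was at 0 in all 4 libraries. In bulk RNA, fewer cells of a type and less RNA per cell cannot be told apart.

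**Figure D1:**
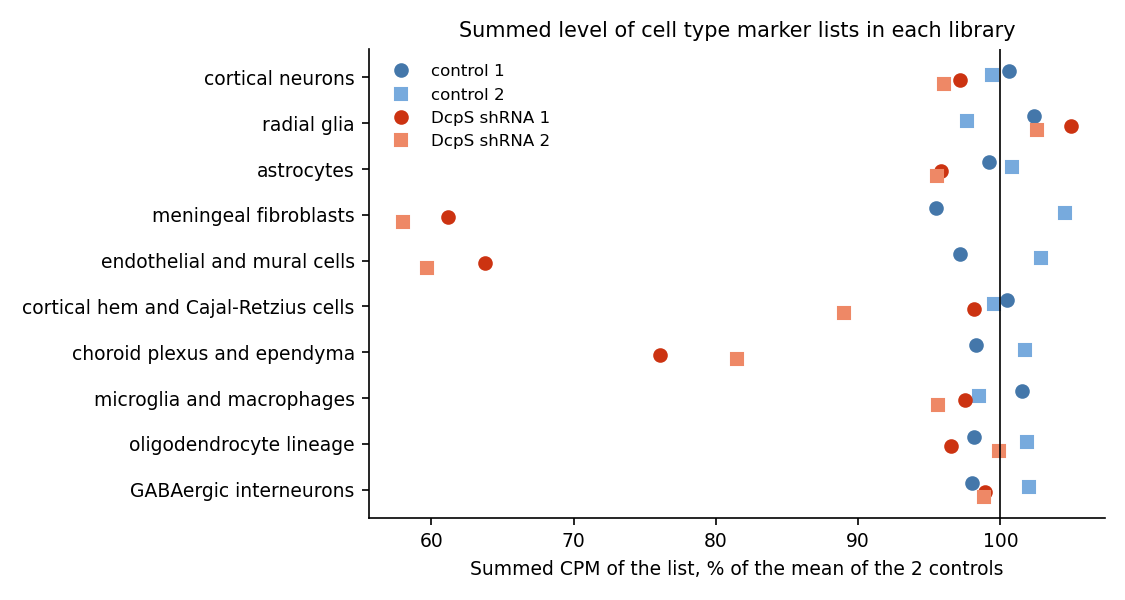
Summed CPM of each marker list in the 4 libraries, as a percentage of the mean of the 2 controls, with 1 point per library and vertical offsets that only separate points. The sums of the meningeal fibroblast, endothelial and choroid plexus lists lie well below the controls in both DcpS shRNA libraries, and the neuron list lies within a few percent of them.

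With DcpS shRNA, 3 of the 30 members tested were lower and 0 were higher. They were Wnt8b, a ligand of the medial cortical edge, Wnt5a, the main ligand of the branch without beta-catenin, and Fzd1, a Frizzled receptor. Over all genes tested, 5.79% were called, 3.65% lower and 2.14% higher, beside the 3 members of 30 (limma, Benjamini-Hochberg adjusted p under 0.05). Only those members with enough reads were tested: 29 of the 30 passed the minimum read count in all 4 libraries, and Dkk2 in 3 of them. The median log2 fold change of the tested members was −0.003, beside 0.0007 for all genes, with 15 members below 0 and 15 above. edgeR called the same 3 genes (5.77% of all genes tested), and DESeq2 called 2 of them, Wnt8b and Fzd1 (2.47% of all genes tested). At an unadjusted p under 0.05 there were 8 members of 30, beside 18.7% of all genes tested.

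**Figure D2:**
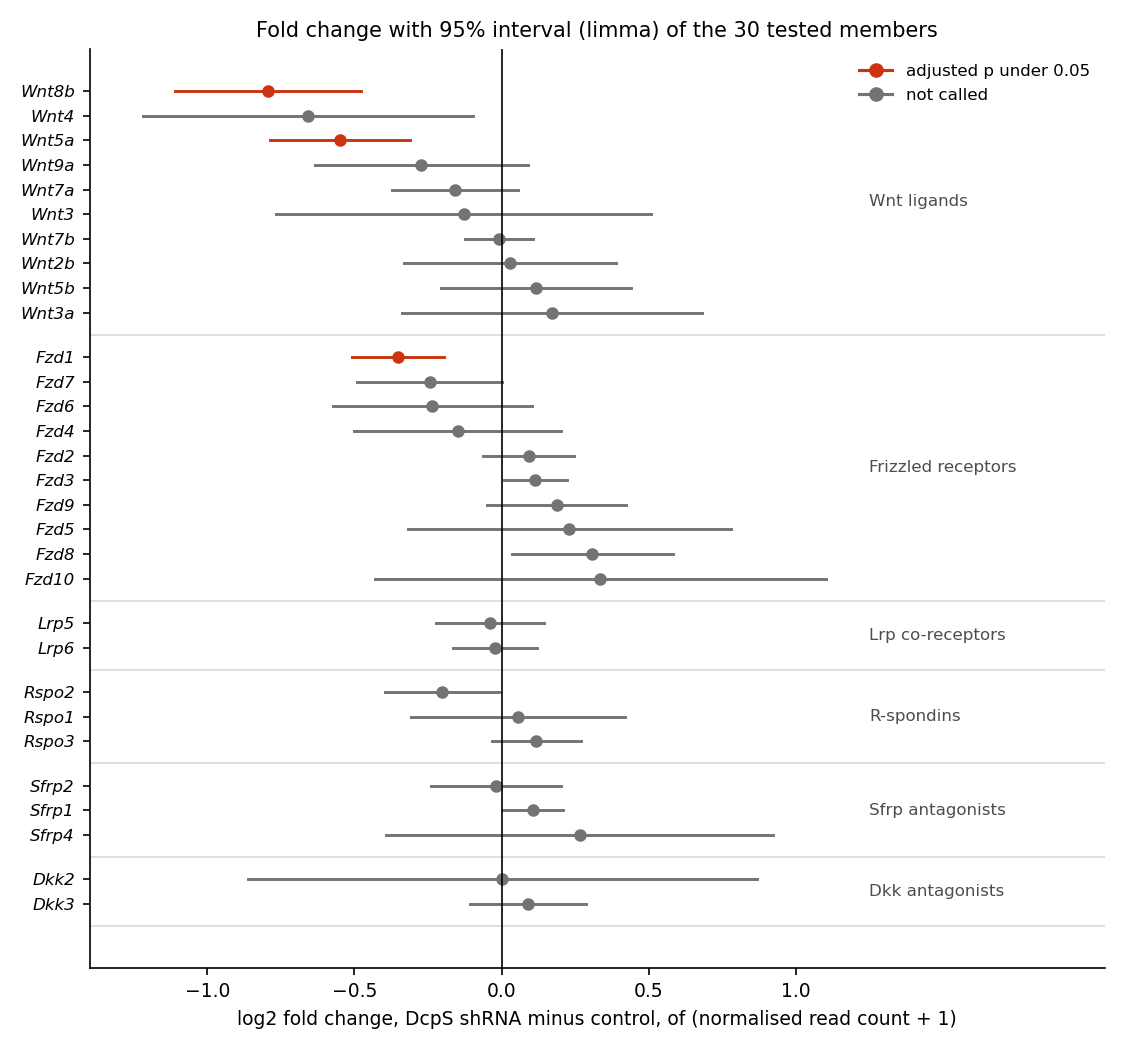
Log2 fold change (DcpS shRNA minus control, of normalised read count + 1) with its 95% interval for the 30 tested members, grouped by role. The intervals of Wnt8b, Wnt5a and Fzd1, in red, lie below 0 and passed the adjusted threshold, and most others include 0.

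Wnt8b (chromosome 19, 44493472 to 44514273, plus strand, GRCm38) had normalised read counts of 137 and 143 in the controls against 80.9 and 79.3 with DcpS shRNA. Both DcpS shRNA libraries were low and the groups were far apart for their spread. The mean dropped, from 139.7 ± 4.05 to 80.1 ± 1.07 (SD, 2 libraries each, n = 2), a log2 fold change of −0.79 (SE 0.15, 95% interval −1.11 to −0.48; Benjamini-Hochberg adjusted p 0.00370 in limma). DESeq2 gave the gene an adjusted p of 0.0490, and it stayed called without each library in turn, with log2 fold changes from −0.82 to −0.77. Wnt8b is known from the cortical hem and adjoining hippocampal wall. The hem is a source of several Wnt ligands, and not all ligands were lower with Wnt8b. Of the 10 tested, 7 had log2 fold changes below 0 and 3 above 0, namely Wnt5b, Wnt2b and Wnt3a. Which ligand RNA came from hem cells in these cultures was not tested. Of 11 tested markers of cortical hem and Cajal-Retzius cells 0 were called, and their summed level was 467 and 462 CPM in the controls against 456 and 413 CPM with DcpS shRNA. Reln made up 81.8% of that sum, and the other 11 genes summed to 85.9 and 81.8 against 80.4 and 78.96 CPM. The hem genes Lmx1a, Msx1 and Msx2 had means of only 2.52, 2.42 and 0.271 CPM, and Msx2 was not tested. The summed level of the list thus says little about the hem. None of the 12 hem and Cajal-Retzius genes was at 0. The 11 called fibroblast genes and the genes called lower in the endothelial, choroid plexus and astrocyte lists given above were lower in the same libraries as Wnt8b. Other genes of these lists went the other way. Aldoc was called higher, and Crabp2, Pecam1, Tagln, Foxj1 and Kcne2 were higher in both DcpS shRNA libraries without a call. The part of the lists in the fall of Wnt8b was not tested.

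Wnt5a (chromosome 14, 28504750 to 28527448, plus strand) had normalised read counts of 263 and 300.5 in the controls against 197 and 187 with DcpS shRNA. The groups did not overlap, and the controls lay further apart than the DcpS shRNA libraries. The mean dropped, from 282 ± 26.4 to 192 ± 7.45 (SD, 2 libraries each, n = 2), a log2 fold change of −0.55 (SE 0.11, 95% interval −0.79 to −0.31; Benjamini-Hochberg adjusted p 0.00719 in limma). The call ended without control 2 (Benjamini-Hochberg adjusted p 0.0908 in limma, log2 fold change −0.45) and with DESeq2 (adjusted p 0.0603). Its antisense neighbour Gm2670 covers 4.58% of its exons and had at most 10.5 normalised reads in any library.

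Fzd1 (chromosome 5, 4753839 to 4758035, minus strand) had normalised read counts of 1644 and 1380.4 in the controls against 1206 and 1155 with DcpS shRNA. The receptor was low in both DcpS shRNA libraries, but control 2 lay nearer to them than to control 1 by value. Its mean dropped, from 1512 ± 186 to 1181 ± 35.5 (SD, 2 libraries each, n = 2), a log2 fold change of −0.35 (SE 0.07, 95% interval −0.51 to −0.20; Benjamini-Hochberg adjusted p 0.00889 in limma). The call ended without control 1, where the log2 fold change was −0.23 (Benjamini-Hochberg adjusted p 0.150 in limma). The marker genes called lower that are named with Wnt8b were lower in the same libraries as Wnt5a and Fzd1, and others of those lists were higher. The part of the lists in these falls was not tested.

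**Figure D3:**
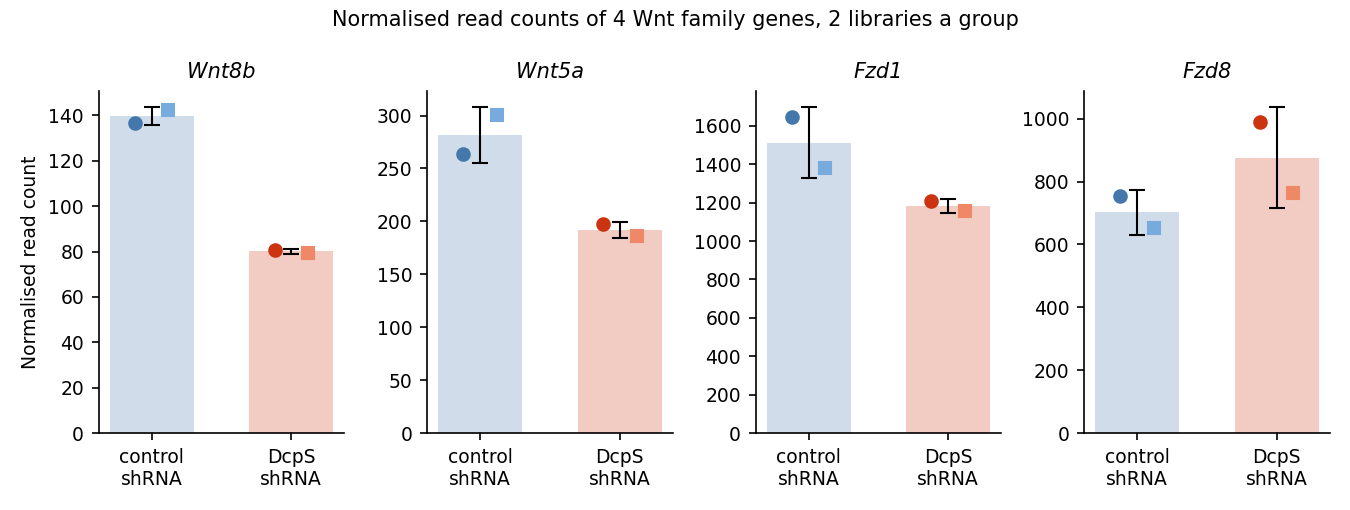
Normalised read counts of Wnt8b, Wnt5a, Fzd1 and Fzd8 in each library (points), with the group mean (bar, from 0) and SD (line, n = 2). The DcpS shRNA libraries lie below both controls for the first 3 genes, and Fzd8 has 1 high DcpS shRNA library at 990.3.

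Among the ligands, Wnt7b was the most abundant per exon length. Its level in RPKM, which is CPM divided by the exon length in kilobases, was 31.6 and 30.1 in the controls against 31.6 and 29.7 RPKM with DcpS shRNA, 64.9% to 70.1% of the summed ligand level of a library. In normalised reads it had 3066 and 2916 against 3062 and 2884. The groups overlapped almost fully, and its log2 fold change was −0.01 with a 95% interval of −0.12 to 0.11. An antisense gene, AU022754, overlaps 6.61% of its exons. Wnt7a, the second ligand by level, had 4.62 and 5.16 RPKM in the controls against 4.46 and 4.30 RPKM with DcpS shRNA. Its normalised read counts were 291 and 324 against 279.8 and 270.4, lower in both DcpS shRNA libraries without passing the test (log2 fold change −0.16, 95% interval −0.37 to 0.06).

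The next ligands were close to each other in level. Wnt5b had 1.90 and 2.22 RPKM in the controls, Wnt8b 1.98 and 2.07 RPKM and Wnt5a 1.70 and 1.94 RPKM. The range of Wnt5b overlaps that of each of the other two, and Wnt8b lay just above Wnt5a, so their order in the controls is hardly set. With DcpS shRNA Wnt5b, at 2.11 and 2.36 RPKM, lay above Wnt8b, at 1.17 and 1.15, and Wnt5a, at 1.27 and 1.20. In normalised reads Wnt5b had 99.8 and 117 in the controls against 111 and 124 with DcpS shRNA, and its groups overlapped (log2 fold change 0.12, 95% interval −0.21 to 0.44). The difference between Wnt5b and its paralogue Wnt5a was not tested.

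Wnt4, a ligand best known from kidney and gonad development, had normalised read counts of 39.0 and 40.0 in the controls against 20.9 and 29.1 with DcpS shRNA. Its groups did not overlap, and its log2 fold change of −0.66 had a 95% interval of −1.22 to −0.10 but an adjusted p of 0.183 (limma, Benjamini-Hochberg). Wnt9a had 89.3 and 106 against 87.2 and 73.8 normalised reads, and Wnt3 23.8 and 21.5 against 19.99 and 21.2. Neither was called. Wnt2b and Wnt3a, the remaining tested ligands, were singled out after their values were seen. They were not called either, with log2 fold changes of 0.03 (95% interval −0.33 to 0.39) and 0.17 (95% interval −0.34 to 0.68). Of the 10 tested ligands 6 were lower in both DcpS shRNA libraries than in both controls and 0 were higher in both. By the same count, 24.7% of all tested genes averaging 1 CPM or more were lower and 25.4% were higher. Whether the ligands depart from these shares was not tested.

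Across the family, 16 of the 29 tested members with a mean of at least 1 CPM had groups that did not overlap, 10 lower and 6 higher. Among all tested genes at that level 50.1% did not overlap, 24.7% lower and 25.4% higher, so the family's share of 55.2% was near the background. With 2 libraries against 2 the smallest exact two-sided permutation p is 0.333, and a lack of overlap alone shows little.

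The remaining 9 ligands had too few reads to test, with at most 10 reads in any library. They were Wnt1, Wnt2, Wnt6, Wnt8a, Wnt9b, Wnt10a, Wnt10b, Wnt11 and Wnt16. Of these Wnt10b, at 6.65 to 9.09 normalised reads, Wnt16, at 3.08 to 10.1, and Wnt11 had reads in every library. In 4 places in the genome a pair of ligand genes lies within 24329 bases of each other: Wnt6 with Wnt10a, Wnt3a with Wnt9a, Wnt9b with Wnt3, and Wnt10b with Wnt1. Neighbours could differ in level: Wnt3 had a mean of 0.355 RPKM and Wnt9b 0.00540. By contrast Wnt3a, at 0.825 RPKM, and Wnt9a, at 1.35, were nearer to each other, and both genes of the pair Wnt6 and Wnt10a were below the floor for testing. Of these 8 genes 3 were tested (Wnt3, Wnt3a and Wnt9a), and none of the 3 was called.

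**Figure D4:**
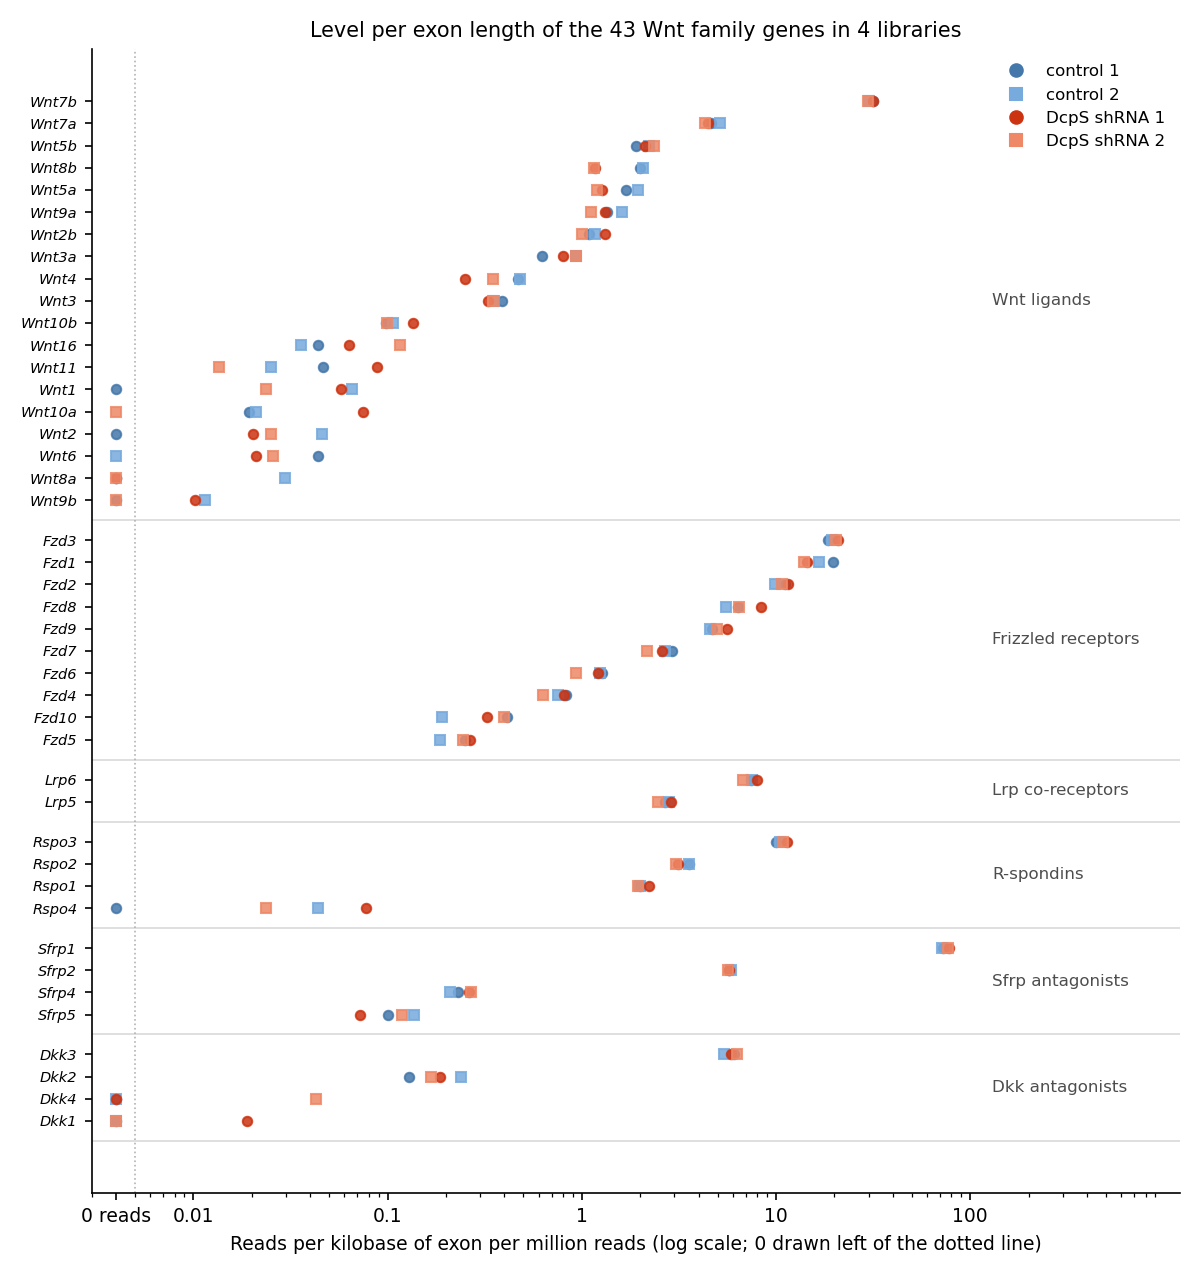
RPKM of the 43 members in each of the 4 libraries, on a log axis, grouped by role and ordered by mean level. Sfrp1, Wnt7b, Fzd3 and Fzd1 lie furthest right, and points of 13 members, those with at most 10 reads, scatter at the left.

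Frizzled receptors bind Wnt ligands through a cysteine-rich domain, and all 10 could be tested. Fzd3, which is known for its role in axon tracts, and Fzd1 had the highest levels. In control 1 Fzd1 was above Fzd3, at 19.8 against 18.6 RPKM, and in control 2 it was below, at 16.6 against 19.4 RPKM. With DcpS shRNA it was below in both libraries, at 14.5 and 13.9 RPKM against 20.8 and 20.4 for Fzd3. The share of Fzd1 in the summed Frizzled level was 29.8% and 27.2% in the controls against 22.0% and 22.8% with DcpS shRNA. The summed level itself overlapped between the groups, at 66.2 and 61.1 RPKM in the controls against 66.0 and 60.8 with DcpS shRNA. In normalised reads Fzd3 had 4727 and 4923 in the controls against 5274 and 5176 with DcpS shRNA. Both DcpS shRNA libraries were higher, by little, and the gene was not called (log2 fold change 0.12, 95% interval 0.01 to 0.22; Benjamini-Hochberg adjusted p 0.234 in limma).

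Fzd8, a receptor of neural progenitors, had normalised read counts of 753 and 652 in the controls against 990.3 and 762 with DcpS shRNA. The groups did not overlap, but DcpS shRNA 2 was close to control 1, and the gene was not called (log2 fold change 0.31, SE 0.12; Benjamini-Hochberg adjusted p 0.210 in limma). Without DcpS shRNA 2 its log2 fold change was 0.50, a value that rests on DcpS shRNA 1 alone, at 990.3. Fzd8 passed with all 4 libraries once set number was a term of the fit (Benjamini-Hochberg adjusted p 0.00108 in limma and 0.00226 in edgeR). DcpS shRNA was the higher library in both sets. That setting also raised the number of genes called over the whole table. Fzd2 had 805 and 719 normalised reads against 839 and 784, with overlapping groups. Fzd9 had 213 and 207 against 253 and 227, higher in both DcpS shRNA libraries. Fzd7 had 263 and 242 against 232 and 196, and Fzd6 had 122 and 118 against 115 and 89.4, both lower in the DcpS shRNA libraries. None of these 4 was called, and the lowest adjusted p among them was 0.274 (limma, Benjamini-Hochberg), that of Fzd7. Fzd4, Fzd5 and Fzd10 had levels of 0.187 to 0.834 RPKM in single libraries, overlapping groups and no call. Genes on the other strand overlap 17.8% of the exons of Fzd5 and 3.15% of those of Fzd6.

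The Lrp co-receptors, which carry the beta-catenin signal together with Frizzled, did not differ beyond their spread. Lrp6 had normalised read counts of 2012 and 2039 in the controls against 2159.7 and 1842 with DcpS shRNA. Lrp5 had 517 and 543 against 556 and 477. In both genes the controls lay between the DcpS shRNA libraries. The 95% intervals of the log2 fold changes were −0.16 to 0.12 for Lrp6 and −0.22 to 0.14 for Lrp5. Per exon length Lrp6 was the higher of the pair in each library, at 72.8% to 73.5% of their sum.

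R-spondins, which strengthen Wnt signals through Lgr receptors, were led by Rspo3 at 9.97 and 10.5 RPKM in the controls against 11.3 and 10.9 with DcpS shRNA. Rspo3 had 611 and 642 normalised reads against 693 and 667, higher in both DcpS shRNA libraries and not called (log2 fold change 0.12, 95% interval −0.03 to 0.27). An antisense gene, Gm48159, overlaps 13.1% of the exons of Rspo3, and the use of strand in counting is not given. Rspo2 had 360.1 and 359 against 316 and 308, lower in both and also not called (log2 fold change −0.20, 95% interval −0.40 to −0.01; Benjamini-Hochberg adjusted p 0.246 in limma). Rspo1 had 76.96 and 76.91 against 85.4 and 74.9, with groups that overlapped. Rspo4 had at most 4 reads in a library and was not tested.

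Sfrp1, a secreted protein that binds Wnt ligands, had the highest level per exon length of the family. It stood at 72.8 and 71.5 RPKM in the controls against 78.1 and 77.1 with DcpS shRNA, and made up 92.0% to 92.8% of the summed Sfrp level. Its normalised read counts were 6311 and 6188 against 6758 and 6689, higher in both DcpS shRNA libraries. The difference was small, with a log2 fold change of 0.11 (SE 0.05), and was not called (Benjamini-Hochberg adjusted p 0.264 in limma). Sfrp2 had 244 and 250.2 against 245 and 242, within the spread of the controls for 1 library and just below it for the other. An antisense gene, Gm26771, overlaps 16.1% of its exons. Sfrp4 had 19.0 and 17.4 against 21.8 and 22.3, and Sfrp5, at 3 to 5 reads, was not tested.

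Dkk3, a secreted relative of the Lrp blockers that is not known to bind Lrp in the same way, was the only Dkk gene with a sizeable level in these libraries. It had 404 and 358 normalised reads in the controls against 389.8 and 420.2 with DcpS shRNA, with overlapping groups (log2 fold change 0.09, 95% interval −0.11 to 0.29). Dkk2 had 9.50 and 17.4 against 13.6 and 12.3, too few for a narrow interval (−0.86 to 0.87). Dkk1, with 1 read in DcpS shRNA 1, and Dkk4, with 1 read in DcpS shRNA 2, had 0 reads in the other libraries. The Lrp-blocking Dkk genes were thus at a mean under 1 CPM in this culture.

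Beyond the family, 132 other genes of the pathway were read from lists by role, and 123 of them were tested. Of these 14 (11.4%) were lower and 5 higher with DcpS shRNA, beside the 3.65% and 2.14% of all genes. The lists were chosen with earlier results of these data known, so the shares are a description and not independent support. Whether the lists depart from the shares of all genes was not tested. The median log2 fold change was −0.01. DESeq2 called 8 of the 19, and edgeR all 19. Without control 1 the number was 11, and without control 2 it was 12.

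**Figure D5:**
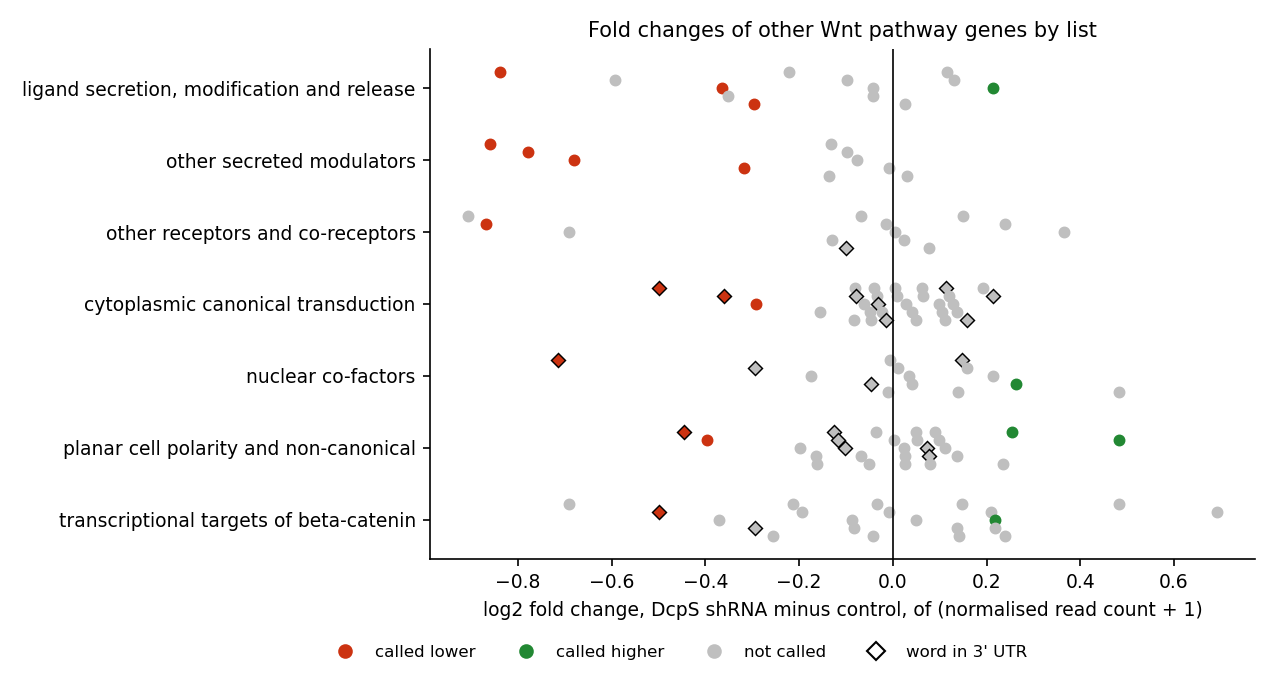
Log2 fold change of each tested pathway gene outside the family, by list, with called genes in colour and diamonds for genes with a Dcps-shared 7-base word in the 3′ UTR. Vertical offsets only separate points. Some genes, such as Nkd2, Axin2 and Apcdd1, stand in 2 lists and are drawn in each. The list of ligand secretion, modification and release and that of other secreted modulators together hold 7 of the 14 genes called lower.

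Of 13 tested genes for ligand secretion, modification and release 3 were lower and 1 higher. Sulf1, an extracellular sulfatase that edits heparan sulfate and so the binding of Wnt ligands, had 1251 and 1488 normalised reads in the controls against 751 and 774 with DcpS shRNA. Both DcpS shRNA libraries were far below the controls (log2 fold change −0.84, SE 0.08; Benjamini-Hochberg adjusted p 4.77e-06 in limma). Its relative Sulf2 had 944 and 887 against 698 and 723 (log2 fold change −0.36, SE 0.07). Wls, the carrier that brings Wnt ligands to the cell surface, had 694 and 721 against 571 and 580.0 (log2 fold change −0.30, SE 0.07). The glypican Gpc4, a heparan sulfate proteoglycan, was higher, at 1647 and 1682 against 1395 and 1475 (log2 fold change 0.21, SE 0.06). The call of Wls ended without control 2 (Benjamini-Hochberg adjusted p 0.152 in limma), and that of Gpc4 without control 1 (0.316), control 2 (0.0770) or DcpS shRNA 2 (0.0649). Neither was called by DESeq2.

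Of 10 tested secreted modulators outside the family 4 were lower and 0 higher. Draxin, an axon guidance protein and Wnt antagonist, had 3068 and 2995 normalised reads in the controls against 2469 and 2394 with DcpS shRNA (log2 fold change −0.32, SE 0.05). Bgn, the matrix proteoglycan biglycan, had 419 and 472 against 258 and 259 (log2 fold change −0.78, SE 0.10). Both genes were low in each DcpS shRNA library and stayed called without any 1 library and with DESeq2. Sostdc1, a BMP and Wnt antagonist, had 68.4 and 67.7 against 40.9 and 33.5, and Ndp, the Frizzled-4 ligand norrin, 96.0 and 75.9 against 49.1 and 57.0. DESeq2 called neither. The call of Sostdc1 ended without control 1 (Benjamini-Hochberg adjusted p 0.0923 in limma), control 2 (0.0898) or DcpS shRNA 2 (0.0866), and that of Ndp without control 1 (0.361) or DcpS shRNA 1 (0.130). Bgn and Sulf1 moved with the fibroblast marker list, whose summed level fell in the same libraries, and the part of that list in their fall was not tested.

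Of 13 tested receptors and co-receptors outside the family 1 was lower. It was Ror1, a receptor tyrosine kinase bound by Wnt5a, at 60.8 and 49.2 normalised reads in the controls against 30.0 and 29.1 with DcpS shRNA (log2 fold change −0.87, SE 0.23). Both DcpS shRNA libraries were below the controls, at a low read count. Its call ended without control 1 (Benjamini-Hochberg adjusted p 0.275 in limma), control 2 (0.0531) or DcpS shRNA 2 (0.0719) and with DESeq2. Ror2, chosen as the other Wnt5a receptor of this kind after its values were seen, had 109 and 102 against 154 and 119.6 and was not called (Benjamini-Hochberg adjusted p 0.216 in limma).

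Inside the cell, 3 of 32 tested genes of the beta-catenin route were lower and 0 higher. Ctnnb1, beta-catenin itself, had 18004 and 18235 normalised reads in the controls against 14215 and 14011 with DcpS shRNA. The groups were far apart for their spread, and the group mean went from 18119 ± 163 to 14113 ± 144 (SD, n = 2 per group; log2 fold change −0.36, SE 0.05; Benjamini-Hochberg adjusted p 2.37e-04 in limma). Nkd2, an inhibitor of the pathway that acts on Dishevelled, had 302 and 312 against 207 and 227 (log2 fold change −0.50, SE 0.10), and DESeq2 did not call it (adjusted p 0.0783). Tnks2, a tankyrase that marks Axin for degradation, had 4400.2 and 4585 against 3755 and 3585 (log2 fold change −0.29, SE 0.05), and it was no longer called without control 2 (Benjamini-Hochberg adjusted p 0.0665 in limma). Among 15 nuclear co-factors, Pygo1 was lower and Pygo2 higher, both of which link beta-catenin complexes to chromatin. Pygo1 had 1519 and 1532 against 905 and 953 (log2 fold change −0.72, SE 0.06), and Pygo2 had 1151 and 1022 against 1353 and 1254 (log2 fold change 0.26, SE 0.07). The call of Pygo2 ended without control 2 (Benjamini-Hochberg adjusted p 0.342 in limma) or DcpS shRNA 1 (0.0880) and with DESeq2.

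Of 22 tested transcriptional targets of beta-catenin 1 was lower, Nkd2, and 1 higher, Tnfrsf19, a receptor of the TNF family, at 1707 and 1735 against 2052 and 1951 normalised reads. The call of Tnfrsf19 ended without control 1 (Benjamini-Hochberg adjusted p 0.190 in limma), control 2 (0.133) or DcpS shRNA 1 (0.0617) and with DESeq2. Axin2, singled out after its values were seen as the most used readout of the pathway, had 646 and 597 against 621 and 554. Its groups overlapped, and its log2 fold change was −0.08 (95% interval −0.25 to 0.09).

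In the planar polarity and non-canonical list, 2 of 27 tested genes were lower and 2 higher. Prickle2, a planar polarity scaffold, had 712 and 778 normalised reads in the controls against 521 and 573 with DcpS shRNA (log2 fold change −0.45, SE 0.08; Benjamini-Hochberg adjusted p 0.00221 in limma). The calcium-regulated transcription factor Nfatc4 was lower, at 369 and 348 against 264 and 279, and its relatives Nfatc2, at 129 and 148 against 204 and 183, and Nfatc3, at 934 and 1028 against 1173 and 1164, were higher. The 3 Nfatc calls ended without control 1 (Benjamini-Hochberg adjusted p 0.151 in limma for Nfatc4, 0.233 for Nfatc2 and 0.297 for Nfatc3), and those of Nfatc4 and Nfatc2 also without DcpS shRNA 1 (0.0566 and 0.141). DESeq2 called none of these 3.

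A pair of overlapping 7-base words, ACGTGCA and CACGTGC, is present in the Dcps transcript and was frequent in the 3′ UTRs of genes that were lower in an earlier reading of these data. Of the tested genes with an annotated 3′ UTR, 7.96% held either word on the sense strand, as did 33.1% of those called lower and 6.27% of those called higher. The words came from these same data, so the share among genes called lower is a description and not independent support. Of the 30 tested family members 0 held either word, so Wnt8b, Wnt5a and Fzd1 were without it. Among all 43, Wnt8a and Wnt9b held a word, and neither had more than 1 read in a library. Among the pathway genes called lower 4 of 14 held a word, Ctnnb1, Nkd2, Pygo1 and Prickle2, as did 15.6% of the pathway genes tested. The part of the words in these falls was not tested. The sites of the 4 called pathway genes and of Wnt9b are shown with the one in Dcps because 4 called pathway genes hold a word and the called family members do not. The site of Wnt8a and those of the other pathway genes are not shown. Capitals mark the word or words, and up to 10 bases on each side are in lower case (GENCODE M21 transcripts, GRCm38, 5′ to 3′ on the transcript).
Dcps, chr9:35124746-35124773, minus strand: ctatcacctgCACGTGCAtttcacagct
Ctnnb1, chr9:120959788-120959814, plus strand: tagtgtctgaACGTGCAttgtgattgg
Pygo1, chr9:72951753-72951779, plus strand: ataacacattACGTGCAgttatatcaa
Prickle2, chr6:92375875-92375901, minus strand: aaactcagaaACGTGCActgttgtgaa
Nkd2, chr13:73820724-73820750, minus strand: ttaccagggaCACGTGCtcctgtgtca
Wnt9b, chr11:103729584-103729611, minus strand: tacaggctcaCACGTGCAcacactcagc
The Dcps site holds both words in a single run and lies in exon sequence annotated as coding in some transcripts and as 3′ UTR in others. Ctnnb1, Pygo1 and Prickle2 hold ACGTGCA, Nkd2 holds CACGTGC, and Wnt9b holds the whole run. A match is a description of the annotated sequence and not a site shown to be bound.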

How the data were processed

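RNA sequencing reads of 4 libraries (2 control shRNA, 2 DcpS shRNA) were analysed from a deposited table of 32681 genes. Per the submitters' processing notes, HISAT2 2.2.0, SAMtools 1.3.1, Picard, featureCounts and DESeq2 were used with genome build GRCm38. Not given in the sources used here were their settings, gene annotation and strand use. The deposited values are a signal scaled by the authors: dividing a column by its lowest value above 0 gave whole reads for 100% of values (tolerance 0.001), the reads divided by a size factor; edgeR on them called 1045 genes. A filter (edgeR filterByExpr, minimum count 10) left 18110 genes. The test was limma 3.58.1 (R 4.3.3) on log2(normalised read count + 1), with moderated variances (trend and robust settings) and group alone as a term, two-sided, and Benjamini-Hochberg adjustment over all genes tested; this scale understates the change of low genes. edgeR 4.0.16 and DESeq2 1.42.0 on the recovered reads, other scalings, filters and pseudocounts, a replicate block and leaving out each library were alternatives. The limma fit has 2 residual degrees of freedom. The code was tested on simulated data. Exon lengths, coordinates and 3′ UTRs came from GENCODE M21 (GRCm38), in which 43 of 43 members were matched by symbol.

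Named genes were those called, the 3 highest of each role per exon length, and those whose groups did not overlap at a mean of at least 1 CPM; of the pathway lists, up to 6 called genes each. Members and lists were chosen with earlier results of these data known. Of marker lists not described with the results, radial glia 1 of 12 lower and 1 higher, cortical neurons 1 of 14 lower and 2 higher, microglia 0 of 9 called, the oligodendrocyte lineage 1 of 8 lower and 1 higher, and GABAergic interneurons 1 of 9 higher. Libraries of a group differed by more than sampling noise (chi-square per degree of freedom 2.15 for controls and 4.03 for DcpS shRNA), so each was counted as 1 sample.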

Additional observations from a re-analysis of the deposited data

How the results depend on the processing

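The number of family genes called was 3 in the reported fit, 3 with edgeR, 2 with DESeq2, 3 with TMM or library-total scaling, either filter or either pseudocount, and 2 to 4 without 1 library. With set number as a replicate block it was 4 in limma and 4 in edgeR, the 3 called genes plus Fzd8 (log2 fold change 0.31; limma, Benjamini-Hochberg adjusted p 0.00108). Whether a set number marks a shared preparation is not given in the labels, and the deviations of same-numbered libraries from their group means correlated at 0.0429 across genes, which with 2 sets does not settle it. The reported fit treats the libraries as unpaired. Among all genes tested 1048 were called, 448 with DESeq2, 1626 with the replicate block in limma, 1412 with it in edgeR, and 594 (without control 2) to 1439 (without DcpS shRNA 1) without 1 library. The number of other pathway genes called was 19, 8 with DESeq2, 23 with the replicate block in limma and 11 to 21 without 1 library. Where 1 library was left out, the lone sample of its group was assumed to vary like the other group. Genes near 0 changed sign: Dkk2 was at −0.038 in edgeR, −0.021 in edgeR with the replicate block, −0.00099 with TMM scaling and −0.0071 with a pseudocount of 5. Without 1 library Dkk2 ran from −0.40 to 0.41, Wnt7b from −0.052 to 0.034, Lrp6 from −0.14 to 0.092, Lrp5 from −0.15 to 0.070 and Rspo1 from −0.039 to 0.15. The call of Ndp also ended with library-total scaling (limma, Benjamini-Hochberg adjusted p 0.0512). Causes of these differences were not tested. At these depths 13 members, each with at most 10 reads in a library, could not be tested.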
